A study of Mus musculus with 24 samples.

Results

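Lipolysis in fat is switched on and off by receptors on the adipocyte surface. The genes of 7 of them are described here in mouse inguinal white fat, which lies under the skin of the groin. They are Adrb1, Adrb3 and Adra2a of the adrenergic family, Npr1 and Npr3 of the natriuretic peptide family, the adenosine receptor gene Adora1 and the lactate receptor gene Hcar1. They were taken by symbol from a table of 16233 genes, and all 7 were listed. The tissue came from male C57BL6 mice aged 10 to 11 weeks. RUN mice had exercised for 1 hour, under a red lamp in the dark at ZT15 and with lights on at ZT3, and SED mice had spent a sham hour on an artificial treadmill. Sampling was labelled ZT15, early in the active phase, or ZT3, early in the rest phase (zeitgeber time, with the start of light as 0). The groups were ZT15 RUN, ZT15 SED, ZT3 RUN and ZT3 SED, with 6 libraries each and 24 in all. The hour between the bout and the sampling is not given in the labels of these libraries.

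Noradrenaline from sympathetic nerves acts on the beta receptors encoded by Adrb1 and Adrb3, which couple to stimulatory G protein, raise cAMP and so activate the kinase that turns on the lipases. The alpha-2A receptor (Adra2a), the A1 adenosine receptor (Adora1) and the lactate receptor (Hcar1) couple to inhibitory G protein and lower cAMP. Npr1 encodes the receptor for atrial and B-type natriuretic peptide, which makes cGMP, and Npr3 encodes the clearance receptor that binds and removes the same peptides. In rodent white fat Adrb3 is the beta receptor best known for driving lipolysis and is largely restricted to adipocytes.

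Values are the authors' normalized signal, counts per unit of library size with a library scaling factor, in which 1 read was worth between 0.0278 and 0.0601. Library depth in the listed genes was 18.5 to 34.7 M reads. All 8 adipocyte markers were measured, and their summed signal was 23796 to 34895 in ZT15 RUN, 15879 to 30841 in ZT15 SED, 11650 to 28806 in ZT3 RUN and 20056 to 26258 in ZT3 SED. There were 3 libraries that stood apart. Cd79a, a B cell receptor component, was 54.6 in ZT15_SED_5, 14.1 in ZT15_SED_3 and 99.2 in ZT3_RUN_4, against at most 1.33 in every other library. They are called the Cd79a-high libraries below, and results that rest on them are given with and without them. Summed over 10 lymphocyte markers, the signal was 7.63 to 16.2 in ZT15 RUN, 11.8 to 839 in ZT15 SED, 9.05 to 1207 in ZT3 RUN and 12.2 to 19.6 in ZT3 SED. In whole tissue, fewer cells of a type and less RNA per cell cannot be told apart.

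Set against gene length, the receptors spanned a wide range of levels. Signal per kilobase of merged exons, over the 24 libraries, was 82.6 ± 26.7 for Adrb3 and 70.7 ± 31.1 for Npr3 (SD). It was 34.0 ± 11.3 for Hcar1, 15.7 ± 4.00 for Adora1 and 14.9 ± 3.12 for Npr1. Adrb1 had 1.14 ± 0.464 and Adra2a 0.156 ± 0.0844. Neighbours at the top could change places: Adrb3 was above Npr3 in 15 of 24 libraries, Npr3 above Hcar1 in 21, Hcar1 above Adora1 in 23, and Adora1 above Npr1 in 14. The lower steps did not overlap, since Npr1 was at least 6.92 times Adrb1 and Adrb1 at least 1.81 times Adra2a in every library. In reads, Npr3 had 8355 to 39522 per library, Adrb3 4311 to 12724, Hcar1 1369 to 5762, Adora1 1529 to 3638 and Npr1 1173 to 3068. Adrb1 had only 51 to 185 reads and Adra2a 3 to 49, so counting error weighs most on these. By the spread over all libraries Npr1 was the steadiest, with a coefficient of variation of 21.0%, and Adra2a the least steady, with 54.1%.

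**Figure D1:**
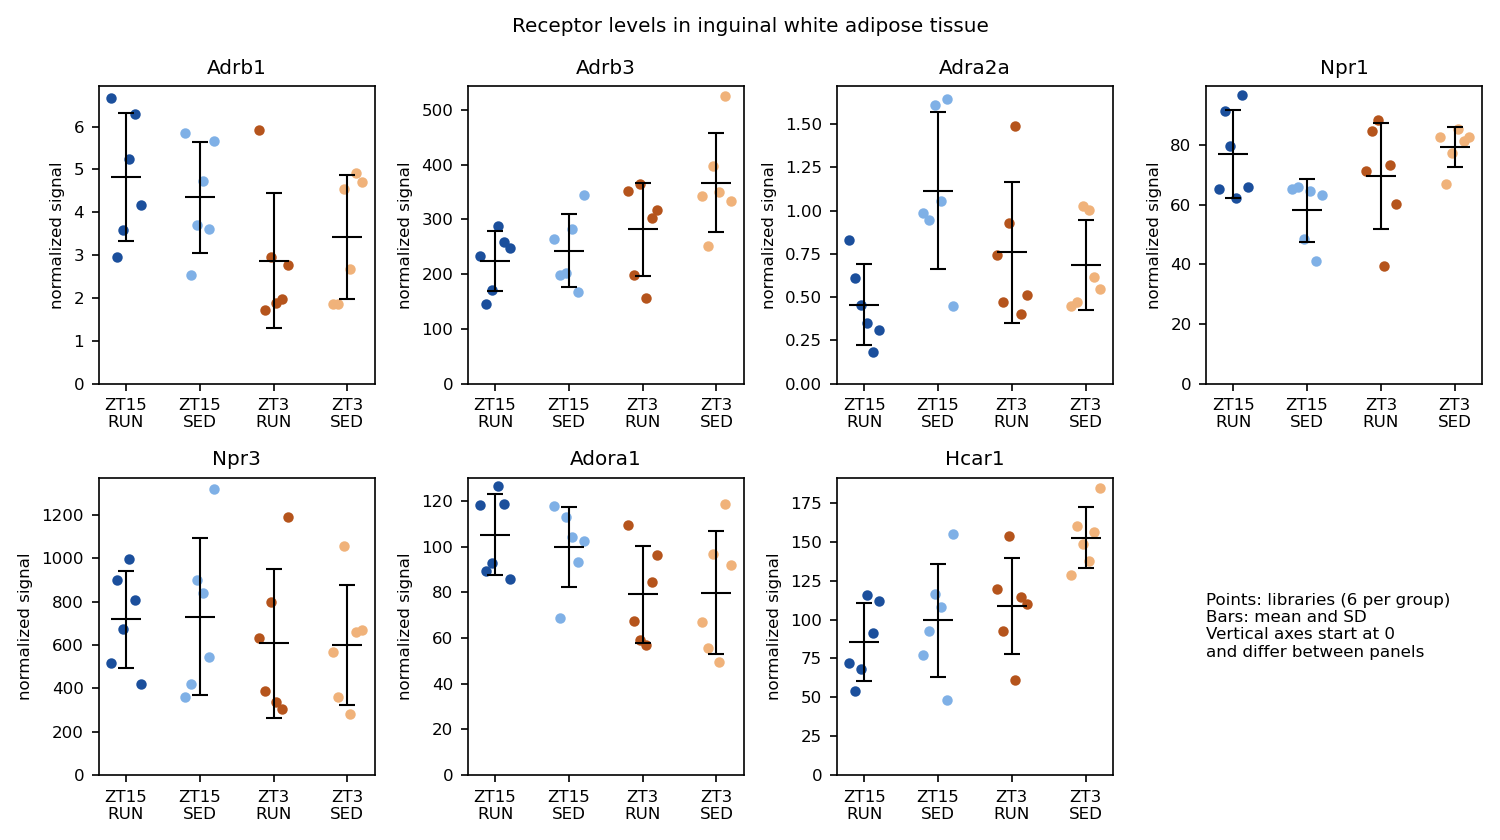
Normalized signal of each receptor gene in every library (points, 6 per group) with the group mean and SD (bars), in the order ZT15 RUN, ZT15 SED, ZT3 RUN and ZT3 SED. Vertical axes start at 0 and differ between panels. The ZT15 SED libraries lie wholly below the ZT3 SED libraries for Npr1, and 1 ZT3 RUN library stands at 5.92 for Adrb1.

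The genes lie on 6 chromosomes by GENCODE M21 coordinates of GRCm38, matched by Ensembl identifier. The build used for counting is not given in the sources used here. Adra2a (ENSMUSG00000033717) spans chr19:54044151-54048982 on the plus strand and Adrb1 (ENSMUSG00000035283) chr19:56722199-56733113 on the plus strand. On the minus strand, Adrb3 (ENSMUSG00000031489) spans chr8:27225776-27250616, Npr1 (ENSMUSG00000027931) chr3:90450591-90465866 and Npr3 (ENSMUSG00000022206) chr15:11839896-11907287. Adora1 (ENSMUSG00000042429) spans chr1:134199223-134235431 and Hcar1 (ENSMUSG00000049241) chr5:123876736-123880020, also on the minus strand.

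Promoter windows from 250 bases before to 50 bases after a RefSeq start (GRCm38.p6) were found for 6 of the 7 genes, with 2 windows for Adora1. They were searched on both strands for the E-box CACGTG, bound by clock factors, the cAMP response element TGACGTCA, the REV-ERB and ROR half-site AGGTCA, and the glucocorticoid response element. Of 32851 windows of the same table, 7.15% held the first, 1.79% the second, 16.3% the third and 0.475% the fourth. Adra2a held an E-box that begins 80 bases before its RefSeq start. No other receptor window held any of the 4 motifs, which says only that these letters are not in these windows. Adrb3 had no window, so its promoter was not searched. The Adra2a site is shown with 12 bases on either side, the motif in capitals, at chr19:54045167-54045196 on the plus strand, inside the GENCODE span of the gene. Beside it stand the stretches before every annotated start of Hcar1 (chr5:123880021-123880253, minus strand) and Npr1 (chr3:90465929-90466116, minus strand), the 2 genes with the smallest adjusted p between times in sedentary mice, in which none of the motifs occurs. All are 5′ to 3′ on the gene's strand.
Adra2a E-box: gggtcgacttccCACGTGggggctgacgcc
Hcar1 upstream: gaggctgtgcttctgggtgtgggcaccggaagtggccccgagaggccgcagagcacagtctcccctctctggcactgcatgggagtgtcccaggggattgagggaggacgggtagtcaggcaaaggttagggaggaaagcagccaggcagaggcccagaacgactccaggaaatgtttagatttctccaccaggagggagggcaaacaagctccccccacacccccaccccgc
Npr1 upstream: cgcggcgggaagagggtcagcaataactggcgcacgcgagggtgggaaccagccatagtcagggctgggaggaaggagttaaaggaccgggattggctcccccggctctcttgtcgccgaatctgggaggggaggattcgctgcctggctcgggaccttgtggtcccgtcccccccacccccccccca

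The first comparison was time of day. Averaged over the treatments, Adrb3 and Hcar1 had lower levels at ZT15 than at ZT3, Adrb1 and Adora1 had higher levels, and none of the 7 passed an adjusted p of 0.05. Adrb3 averaged 234 ± 58.6 at ZT15 and 324 ± 95 at ZT3 (SD, n = 12 each). Hcar1 averaged 92.6 ± 30.7 at ZT15 and 131 ± 33.6 at ZT3. Adrb1, the other beta receptor gene, averaged 4.59 ± 1.36 at ZT15 and 3.15 ± 1.47 at ZT3, and Adora1 averaged 103 ± 17.1 at ZT15 and 79.5 ± 23.2 at ZT3. The differences are log2(value + 1) changes with their SE, from limma with Benjamini-Hochberg adjustment over all genes. They were -0.51 ± 0.17 for Hcar1 (adjusted p = 0.0629) and -0.45 ± 0.16 for Adrb3 (adjusted p = 0.0867). They were 0.40 ± 0.14 for Adora1 (adjusted p = 0.0886) and 0.47 ± 0.17 for Adrb1 (adjusted p = 0.109). Of all genes 7.37% passed in this comparison, 4.24% higher and 3.14% lower. At an unadjusted p under 0.05 it was 4 of the 7 receptors, against 21.2% of all genes.

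These near-threshold differences in time depended on the handling of the libraries. With the adipocyte marker score as a covariate, Hcar1 had a change of -0.69 (adjusted p = 0.000462) and Adrb3 one of -0.61 (adjusted p = 0.00163) by limma. That fit called 1863 of all genes, against 1197 without the score. The score had higher group means at ZT15, 0.466 in RUN and 0.00598 in SED, than at ZT3, -0.383 in RUN and -0.0898 in SED. What this difference in the score does to the receptor changes was not tested. DESeq2 gave adjusted p-values of 0.0421 for Hcar1 and 0.0383 for Adrb3, and edgeR 0.0808 and 0.0778. Of all genes, DESeq2 called 1636 and edgeR 1185. Over all alternatives other than leaving out a library, the adjusted p ranged between 0.000462 and 0.106 for Hcar1 and between 0.00163 and 0.138 for Adrb3. Leaving out the Cd79a-high libraries, limma gave adjusted p-values of 0.0225 for Hcar1 and 0.0606 for Adrb3, and called 1755 of all genes. Without ZT3_RUN_4, limma gave Hcar1 a change of -0.59 (adjusted p = 0.0192) and Adrb3 one of -0.53 (adjusted p = 0.0234). Without ZT15_SED_6 Hcar1 had -0.59 (adjusted p = 0.0297), without ZT3_SED_5 Adora1 had 0.46 (adjusted p = 0.0364), and without ZT3_RUN_1 Adrb1 had 0.56 (adjusted p = 0.0357). Some markers of other cells differed with time too. Of all genes, 50.67% had changes above 0 in this comparison, and 3.14% were called lower and 4.24% higher. The 6 macrophage genes all had changes below 0, 2 of them fell (Adgre1 by 0.74 and Cd68 by 0.64, with limma adjusted p-values of 0.0152 and 0.0262), and their summed signal was 525 to 1686 in ZT15 RUN, 627 to 1417 in ZT15 SED, 1073 to 2011 in ZT3 RUN and 861 to 1769 in ZT3 SED. The 8 skeletal muscle markers were also all below 0 (median -1.23) and 5 of 6 preadipocyte markers were (median -0.39), with none past the threshold. Summed muscle signal varied widely inside groups, from 155 to 41404 in ZT15 RUN and 20.2 to 37369 in ZT15 SED. It was 341 to 11020 in ZT3 RUN and 44.5 to 16058 in ZT3 SED, so the signs do not show a difference in time. Above 0 were all 7 thermogenic adipocyte markers (median 0.62) and 7 of 8 adipocyte markers (median 0.19), none past it, and 5 of 6 smooth muscle and pericyte markers (median 0.12), of which Rgs5 rose by 0.33 (limma adjusted p = 0.0227). The part of macrophages, preadipocytes, thermogenic adipocytes and pericytes in the receptor differences was not tested. With the muscle and lymphocyte scores as covariates, limma left -0.48 for Hcar1 (adjusted p = 0.0188) and -0.44 for Adrb3 (adjusted p = 0.0193). That fit called 3105 of all genes, against 1197 without these scores.

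Within sedentary mice, Hcar1, Adrb3 and Npr1 had the lower levels at ZT15. Hcar1 had a lowest, median and highest value of 48.0, 100.4 and 155 in ZT15 SED, against 129, 152 and 185 in ZT3 SED. Of the 6 ZT15 libraries, 5 lay below every ZT3 library. Adrb3 had 168, 233 and 345 in ZT15 SED, against 251, 347 and 525 in ZT3 SED. All 6 ZT15 values lay below the ZT3 median, and the groups overlapped. Npr1 had 41.1, 63.9 and 66.1 in ZT15 SED, against 67.1, 82.0 and 85.4 in ZT3 SED. Here the groups did not overlap, as was the case for 2.51% of all genes in either direction and 1.31% in this direction.

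The changes in sedentary mice were -0.69 ± 0.24 for Hcar1 (limma adjusted p = 0.183), -0.60 ± 0.22 for Adrb3 (adjusted p = 0.236) and -0.46 ± 0.16 for Npr1 (adjusted p = 0.197). No receptor passed, while 1.18% of all genes did (0.616% higher, 0.561% lower), and at an unadjusted p under 0.05 it was 3 of the 7 receptors and 12.1% of all genes. With the adipocyte score in the limma fit Hcar1 passed with -0.72 (adjusted p = 0.0107) and Adrb3 with -0.63 (adjusted p = 0.0285), and Npr1 had an adjusted p of 0.0596. With the lymphocyte and muscle scores instead, Hcar1 had -0.45 (adjusted p = 0.221) and Adrb3 -0.39 (adjusted p = 0.248). Leaving out the Cd79a-high libraries, limma gave -0.53 for Hcar1 (adjusted p = 0.228) and -0.42 for Adrb3 (adjusted p = 0.401). The Cd79a-high libraries ZT15_SED_5 and ZT15_SED_3 held the lowest Npr1 values of their group, 41.1 and 48.5. Without the Cd79a-high libraries the Npr1 change was -0.29 (limma adjusted p = 0.277). The 4 other ZT15 SED values, 63.2 to 66.1, lay just below the lowest ZT3 SED value of 67.1. With fewer libraries such a separation is easier to reach, and the share of all genes that have it is not given here. Adrb1, Adra2a, Npr3 and Adora1 had changes between 0.27 and 0.37, with limma adjusted p-values of 0.429 to 0.831.

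Within exercised mice the smallest adjusted p was that of Adrb1, which had higher levels at ZT15. Adrb1 had a lowest, median and highest value of 2.95, 4.71 and 6.68 in ZT15 RUN, against 1.73, 2.37 and 5.92 in ZT3 RUN. All 6 ZT15 values were above the ZT3 median, and ZT3_RUN_1 alone, at 5.92, made the groups overlap widely, the next highest ZT3 RUN value being 2.97. No receptor was free of overlap in exercised mice, against 2.27% of all genes (0.764% lower). Adora1 had 85.9, 106 and 126 in ZT15 RUN, against 56.8, 76.1 and 110 in ZT3 RUN, again with all 6 ZT15 values above the ZT3 median. The changes were 0.63 ± 0.25 for Adrb1 (limma adjusted p = 0.150) and 0.43 ± 0.20 for Adora1 (adjusted p = 0.216). Hcar1 had -0.34 ± 0.24 (adjusted p = 0.427) and Adrb3 -0.30 ± 0.22 (adjusted p = 0.458), and with the adipocyte score as a covariate these became -0.66 (adjusted p = 0.0320) and -0.59 (adjusted p = 0.0569). None of the 7 passed against 4.19% of all genes (2.56% higher, 1.63% lower), and 2 had an unadjusted p under 0.05 against 20.8%. Adrb3 and Hcar1 were thus below 0 and Adrb1 and Adora1 above 0 in both treatments, though the ZT15 and ZT3 groups of each treatment are separate libraries and the receptors covary, as shown further on.

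**Figure D2:**
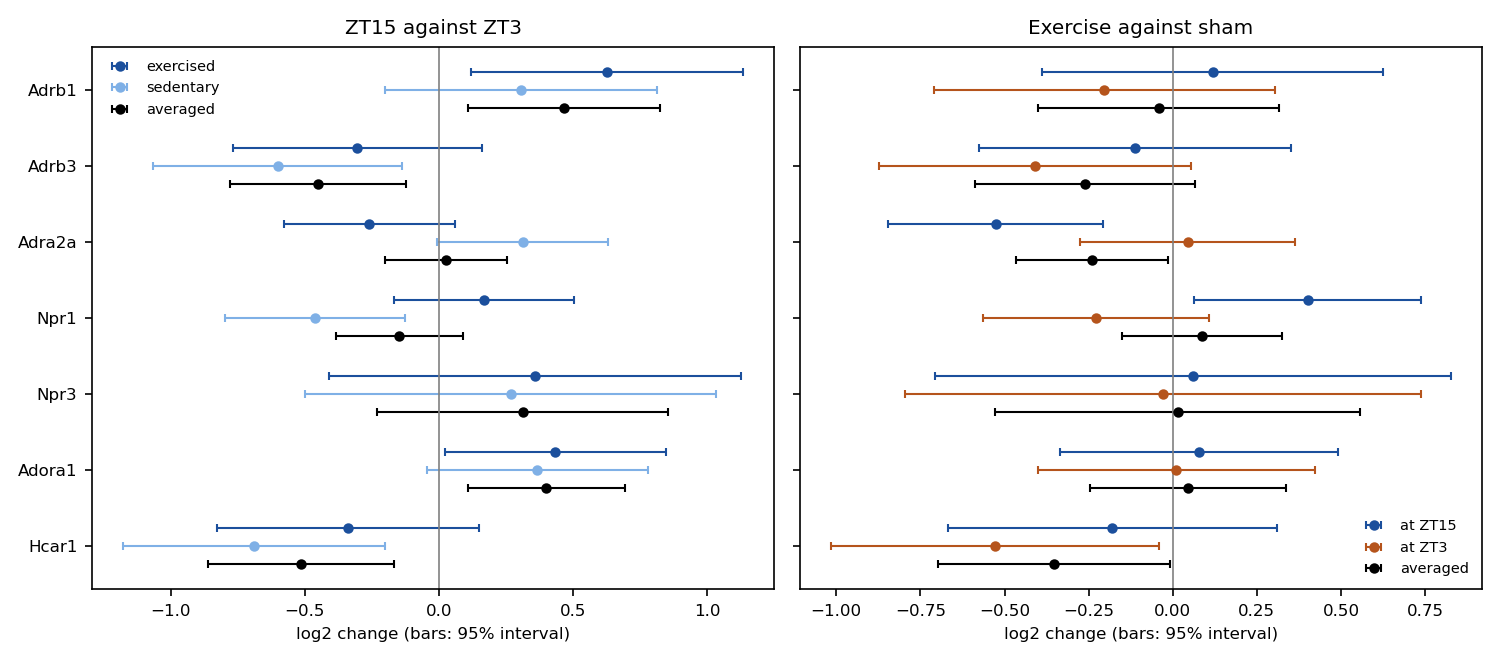
Change of each receptor gene on the log2(value + 1) scale with its 95% interval from limma, for ZT15 against ZT3 (left) and exercise against sham (right). The averaged change in time lies at -0.51 for Hcar1 and -0.45 for Adrb3 and at 0.40 for Adora1 and 0.47 for Adrb1. In the right panel the Adra2a and Npr1 intervals at ZT15 are on opposite sides of 0.

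The second comparison was exercise against sham. At ZT15 the widest difference was in Adra2a, the receptor that restrains lipolysis. Its values were 0.180, 0.307, 0.348, 0.452, 0.610 and 0.831 in ZT15 RUN, against 0.446, 0.944, 0.985, 1.05, 1.61 and 1.65 in ZT15 SED. All 6 RUN values lay below the SED median and 3 below every SED value, with 75 reads in the whole RUN group and 195 in the SED group. The groups overlapped, as they did for every receptor here, while 1.75% of all genes had no overlap (0.745% lower). The change was -0.53 ± 0.15 (adjusted p = 0.114 by limma). Because the pseudocount of 1 is larger than most of these values it understates the change, which was -1.14 with a pseudocount of 0.1 (limma adjusted p = 0.103), -1.26 by edgeR (adjusted p = 0.113) and -1.26 by DESeq2 (adjusted p = 0.0448). The 2 highest values of SED were the Cd79a-high libraries ZT15_SED_5 and ZT15_SED_3. All 10 lymphocyte markers were below 0 in the same comparison, with a median of -1.58 and none past the threshold. Without the Cd79a-high libraries the Adra2a change was -0.35 (limma adjusted p = 0.284).

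Npr1 was the other receptor with an unadjusted p under 0.05 at ZT15. It had a lowest, median and highest value of 62.5, 72.8 and 97.1 in ZT15 RUN, against 41.1, 63.9 and 66.1 in ZT15 SED. Of the 6 RUN values, 3 lay above every SED value and all 6 above the SED mean of 58.1. The change was 0.40 ± 0.16 (adjusted p = 0.300 by limma), and 0.22 without the Cd79a-high libraries (adjusted p = 0.487). Npr3, the clearance receptor, had 419, 740 and 994 in ZT15 RUN, against 360, 691 and 1319 in ZT15 SED, fully overlapping, with a change of 0.06 ± 0.37. Adrb1, Adrb3, Adora1 and Hcar1 had changes between -0.18 and 0.12 on this scale, with limma adjusted p-values of 0.810 to 0.913. None of the 7 passed at ZT15 by limma or edgeR, where limma called 0.641% of all genes (0.481% higher, 0.16% lower), and 2 of 7 had an unadjusted p under 0.05 against 12.7%.

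At ZT3, 5 of the 7 receptors had changes below 0 with exercise, Hcar1 and Adrb3 the most. Hcar1 had 61.3, 112 and 154 as lowest, median and highest in ZT3 RUN, against 129, 152 and 185 in ZT3 SED, and 5 of the 6 RUN values lay below every SED value. The groups overlapped for all 7 receptors, and 0.0739% of all genes had no overlap (0.0246% lower). Its change was -0.53 ± 0.24 (adjusted p = 0.989 by limma). Adrb3 had 156, 310 and 364 in ZT3 RUN, against 251, 347 and 525 in ZT3 SED, with all 6 RUN values below the SED mean of 367. Its change was -0.41 ± 0.22 (limma adjusted p = 0.989). ZT3_RUN_4 was the lowest of its group for both, and without the Cd79a-high libraries the changes were -0.38 for Hcar1 and -0.25 for Adrb3, a shift of over 1.5 times for the second. Npr1 had -0.23 (mean 69.7 in ZT3 RUN and 79.5 in ZT3 SED), Adrb1 -0.20 (mean 2.87 in ZT3 RUN and 3.43 in ZT3 SED) and Npr3 -0.03. No gene of any kind passed at ZT3 by limma (0 of 16233, 0%), edgeR or DESeq2, and 1 of the 7 receptors had an unadjusted p under 0.05 against 2.27% of all genes.

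Averaged over both times, exercise gave -0.35 ± 0.17 for Hcar1 (limma adjusted p = 0.618), -0.26 ± 0.16 for Adrb3 (adjusted p = 0.836) and -0.24 ± 0.11 for Adra2a (adjusted p = 0.578). None of the 7 passed, against 0.142% of all genes (0.123% higher, 0.0185% lower), and 2 had an unadjusted p under 0.05 against 7.74%. The test of whether exercise acted differently at ZT15 and ZT3 gave 0.63 ± 0.23 for Npr1 (adjusted p = 0.583 by limma) and -0.57 ± 0.22 for Adra2a (adjusted p = 0.583). For Npr1 the change with exercise was 0.40 at ZT15 and -0.23 at ZT3, and for Adra2a -0.53 at ZT15 and 0.05 at ZT3. Without the Cd79a-high libraries, 2 of which were ZT15 SED and 1 ZT3 RUN, these 2 interactions were 0.30 and -0.29 with an adjusted p of 1.00 each. The other 5 interactions lay between 0.07 and 0.35. No receptor passed in this test by limma, edgeR or DESeq2. By limma 0% of all genes did, and 2 of 7 receptors had an unadjusted p under 0.05 against 7.84%.

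Ratios taken within a library set aside anything that scales both genes alike. They were chosen after the values were seen and are given without a test. The ratio of Adrb3 to Adrb1, per kilobase, was 35.1 to 59.4 in ZT15 RUN and 59.7 to 154 in ZT3 RUN, which do not overlap. Against Adrb1 as denominator, 0.558% of all genes had no overlap in this comparison. In sedentary mice it was 45.2 to 78.3 at ZT15 and 71.0 to 184 at ZT3, with some overlap, where 0.313% of all genes set against Adrb1 had none (0.294% lower). The mean was 48.0 ± 8.91 in ZT15 RUN, 57.5 ± 12.1 in ZT15 SED, 108 ± 32.8 in ZT3 RUN and 119 ± 40.2 in ZT3 SED (SD, n = 6 each).

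The ratio of Adrb3, a stimulatory receptor, to Adora1, an inhibitory one, was 3.05 to 5.76 in ZT15 SED and 6.22 to 12.2 in ZT3 SED, again without overlap, as was so for 0.902% of all genes set against Adora1 (0.833% lower). It was 2.79 to 4.93 in ZT15 RUN and 4.69 to 10.5 in ZT3 RUN, overlapping slightly, where 1.82% of all genes had no overlap (1.76% lower). Adrb3 to Hcar1 stayed at a similar mean in all groups, 2.59 ± 0.350 in ZT15 RUN, 2.53 ± 0.694 in ZT15 SED, 2.52 ± 0.298 in ZT3 RUN and 2.37 ± 0.634 in ZT3 SED. Clearance to signalling receptor, Npr3 to Npr1, was 4.82 ± 1.71 in ZT15 RUN, 6.58 ± 3.16 in ZT15 SED, 4.64 ± 2.86 in ZT3 RUN and 3.85 ± 1.79 in ZT3 SED, within the spread of the libraries.

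**Figure D3:**
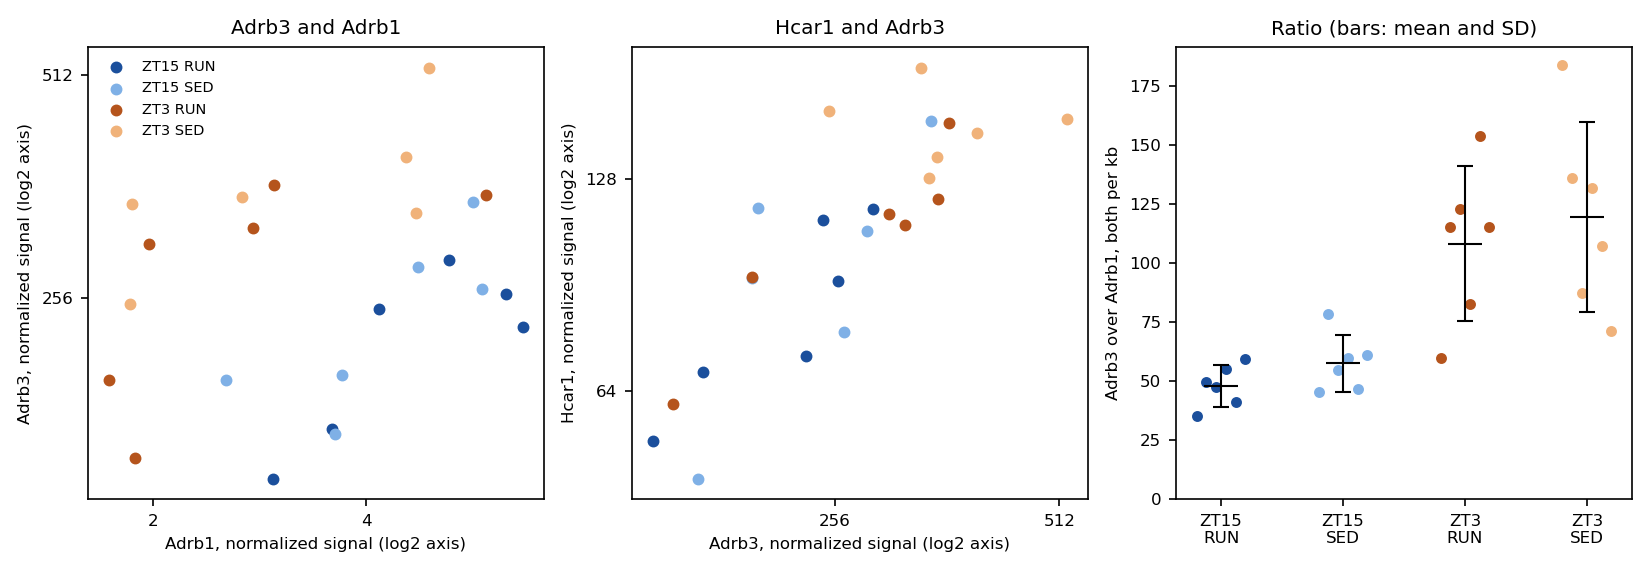
Left and middle: Adrb3 against Adrb1 and Hcar1 against Adrb3 in the 24 libraries (normalized signal, log2 axes), coloured by group. Right: Adrb3 over Adrb1 per kilobase in each library, with mean and SD. Libraries with more Adrb1 have more Adrb3 within each time, and the ratio, 35.1 to 78.3 at ZT15 and 59.7 to 184 at ZT3, overlaps between times.

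Among libraries of the same group several receptors varied together. With group means removed, 4 of the 21 receptor pairs passed an adjusted p of 0.05 by a two-sided permutation test within groups (100000 permutations), and all 4 were positive. Of all gene pairs in the table, 12.6% had an r at least as far from 0 as the lowest of these 4, and 7.19% had one as high and positive, so such an r is common here. Adrb1 and Adora1 had a Pearson r of 0.77 (adjusted p = 0.00157) and a Spearman rho of 0.78. Adrb3 and Hcar1 had r 0.73 (adjusted p = 0.00157) and rho 0.68. Adrb1 and Adrb3 had r 0.71 (adjusted p = 0.00175) and rho 0.69. For Adrb3 and Adora1 r was 0.58 (adjusted p = 0.0271) and rho 0.52 (adjusted permutation p = 0.0720). Without the 2 libraries farthest from the median of the first gene, r was 0.76, 0.73, 0.71 and 0.51 in that order of pairs.

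These relations can also be set against the library handling. Without the Cd79a-high libraries r was 0.78, 0.65, 0.73 and 0.59 in the same order. The labels' title numbers fall into 3 runs of 8 libraries, with 2 of each group in every run and no stated meaning. Within these runs Adrb1 and Adora1 had r between 0.57 and 0.86, and Adrb1 and Adrb3 between 0.58 and 0.87. Adrb3 and Hcar1 had 0.80, 0.08 and 0.88, and Adrb3 and Adora1 had 0.74, 0.86 and 0.21. With only 2 libraries of each group in a run, these r values cannot show whether a relation is present or absent there. Without removal of the group means, Adrb1 and Adrb3 had r 0.29 over the 24 libraries.

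Marker scores, the mean z score of each cell type list, were compared with the receptors in the same way, and 8 of 70 relations passed. An r at least as far from 0 as the lowest of the 8 was found in 10 of the 70, and in 11.3% of the relations of all genes with these scores. The highest was Npr1 with the Schwann cell score, the myelinating and supporting cells of nerve (r 0.80, rho 0.82, adjusted permutation p = 0.00280). It was 0.83 without the Cd79a-high libraries and 0.94, 0.92 and 0.90 within the 3 runs of title numbers. Each run holds so few libraries of a group that the values within runs are no separate test of this relation. The summed Schwann cell markers were 43.4 to 148 in ZT15 RUN, 28.1 to 91.1 in ZT15 SED, 31.2 to 155 in ZT3 RUN and 31.6 to 89.9 in ZT3 SED. All 6 Schwann cell markers had changes above 0 with exercise at ZT15 (median 0.51, none past the threshold), where Npr1 had 0.40. At ZT3 all 6 were above 0 as well (median 0.29), where Npr1 had -0.23. Their part in these differences was not tested.

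Adipocyte markers ran with 4 of the receptors. The adipocyte score had r 0.75 with Hcar1 (adjusted permutation p = 0.00980), 0.71 with Adrb3 (adjusted p = 0.00607), 0.65 with Npr3 (adjusted p = 0.0147) and 0.59 with Adora1 (adjusted p = 0.0196). Without the Cd79a-high libraries r was 0.49, 0.61, 0.76 and 0.65, and the permutation p adjusted over the 70 was 0.190, 0.0599, 0.00327 and 0.0322. Adrb1 had r 0.50 with this score and did not pass. The lymphocyte score had r -0.80 with Npr1 (adjusted permutation p = 0.0126), -0.63 with Adrb3 (adjusted p = 0.00607) and 0.67 with Adra2a (adjusted p = 0.0353). With the Cd79a-high libraries left out, r was -0.19 with Npr1, 0.12 with Adra2a and -0.51 with Adrb3, and none of the 3 passed. Without those libraries 6 relations passed that did not in all 24. The share of the relations of all genes that pass in the reduced set is not given here. The 6 therefore cannot be set against a background. The macrophage score had r -0.92 with Adrb3 (adjusted permutation p = 0.00140), -0.67 with Hcar1 (adjusted p = 0.0463) and -0.65 with Adrb1 (adjusted p = 0.0254), against -0.48, -0.13 and -0.50 in all 24. Adrb3 had -0.71 with the preadipocyte score, Npr3 -0.70 with the skeletal muscle score and Adra2a 0.66 with the mammary epithelium score, against -0.06, -0.53 and 0.43 in all 24. The last of these relations lies near the floor on both sides. Only 3 of 5 mammary epithelium markers were measured, with group medians of their summed signal of 0.529 to 1.30, and Adra2a had 3 to 49 reads per library.

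**Figure D4:**
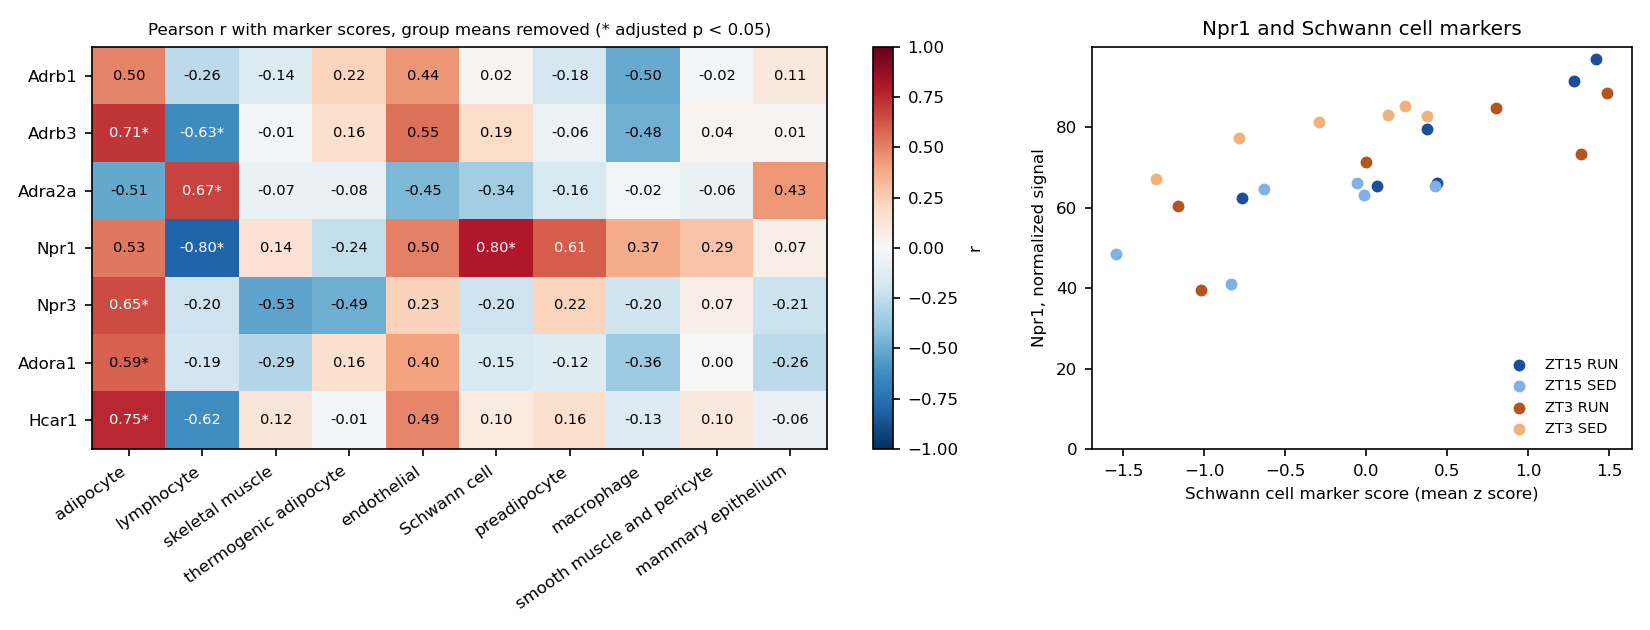
Left: Pearson r of each receptor gene with 10 cell type marker scores over 24 libraries, group means removed, where a star marks an adjusted permutation p under 0.05. Right: Npr1 (normalized signal) against the Schwann cell score in each library. Npr1, from 39.5 to 97.1, is higher where the Schwann cell score is higher (r 0.71 on the log2 scale over the 24 libraries, 0.80 with group means removed).

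For each receptor up to 3 named genes of highest r over the 24 libraries, group means removed, were listed, and as they were picked for this no test is given. Adrb1 ran closest with Fam217b (0.86), Arhgef40 (0.86) and Adcy6 (0.83), an adenylyl cyclase. Adrb3 ran with Ppip5k1 (0.87), Ptpn14 (0.86) and Cluh (0.86). Hcar1 ran with the adiponectin receptor gene Adipor2 (0.88), Arhgap32 (0.87) and the adenylyl cyclase gene Adcy5 (0.87). Npr1 ran with Coro2b (0.92), Jcad (0.90) and Cdh19 (0.88), a cadherin of glial cells, and Npr3 with Bmp3 (0.95), Fads3 (0.90) and Lpgat1 (0.89). Adora1 ran with Cspg4 (0.84), Med12l (0.84) and Tmem179 (0.84), and Adra2a with Bmt2 (0.80) and Zfp36l2 (0.77). Without removal of the group means r was 0.33 for Npr1 with Cdh19, 0.29 for Adrb3 with Ppip5k1 and 0.21 for Hcar1 with Arhgap32. For the other genes named here it was 0.67 to 0.92.

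Several genes around these receptors in the pathway passed the test for time. Of 17 other receptors measured, 3 rose and 3 fell at ZT15 against ZT3 averaged over treatments, with a median change of 0.01. This stands beside 4.24% of all genes called higher and 3.14% lower. For exercise none of the 17 passed at either time, beside 0.641% of all genes at ZT15 and 0% at ZT3. Adra1a, an alpha-1 adrenergic receptor, averaged 51.0 ± 17.6 in ZT15 RUN, 45.9 ± 10.7 in ZT15 SED, 22.9 ± 5.73 in ZT3 RUN and 25.7 ± 6.52 in ZT3 SED (SD, n = 6 each). It rose by 0.95 ± 0.15 averaged over treatments (limma adjusted p = 0.000300) and by 1.09 ± 0.21 in exercised mice (adjusted p = 0.00513). Npy1r, the neuropeptide Y receptor that couples to inhibitory G protein, averaged 12.4 ± 3.50 in ZT15 RUN, 12.1 ± 3.13 in ZT15 SED, 7.19 ± 1.90 in ZT3 RUN and 6.10 ± 1.20 in ZT3 SED, and rose by 0.78 ± 0.13 (adjusted p = 0.000618). In the single treatments Npy1r rose by 0.70 in exercised mice (adjusted p = 0.0359) and by 0.87 in sedentary mice (adjusted p = 0.0179).

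Ffar2, a receptor for short-chain fatty acids, averaged 38.2 ± 9.09 in ZT15 RUN, 38.2 ± 10.9 in ZT15 SED, 60.2 ± 16.8 in ZT3 RUN and 68.8 ± 10.8 in ZT3 SED, and fell by 0.75 averaged over treatments (limma adjusted p = 0.00280) and by 0.87 in sedentary mice (adjusted p = 0.0402). Tshr, the thyrotropin receptor, averaged 90.0 ± 17.5 in ZT15 RUN, 89.1 ± 18.6 in ZT15 SED, 131 ± 41.5 in ZT3 RUN and 137 ± 32.9 in ZT3 SED, and fell by 0.55 (adjusted p = 0.0163). The other 2 past the threshold lie outside the naming rule and are named after their values were seen. The prostaglandin E receptor gene Ptger3 rose by 0.49 (limma adjusted p = 0.0455) and Acvr1c, an activin receptor gene, fell by 0.64 (adjusted p = 0.0176).

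Beyond the receptors, Pde3a and Pde3b passed, 2 phosphodiesterases, the enzymes that break down cAMP. Of 17 kinases and phosphodiesterases 1 fell and none rose averaged over treatments, near the 3.14% and 4.24% of all genes called lower and higher. In exercised mice 1 fell and 1 rose, beside 1.63% and 2.56% of all genes, and in sedentary mice 1 fell, beside 0.561%. Pde3a averaged 25.8 ± 2.29 in ZT15 RUN, 21.8 ± 3.91 in ZT15 SED, 40.3 ± 10.2 in ZT3 RUN and 45.1 ± 6.52 in ZT3 SED. It fell by 0.81 averaged over treatments (limma adjusted p = 1.64e-05), by 0.59 in exercised mice (adjusted p = 0.0196) and by 1.02 in sedentary mice (adjusted p = 0.000322). Pde3b, the phosphodiesterase through which insulin restrains lipolysis, averaged 1037 ± 234 in ZT15 RUN, 750 ± 148 in ZT15 SED, 665 ± 133 in ZT3 RUN and 710 ± 86.4 in ZT3 SED, and rose by 0.64 ± 0.16 in exercised mice (adjusted p = 0.0299).

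Of 9 genes of receptor desensitization 1 rose in exercised mice, beside 2.56% of all genes, and 1 rose and 1 fell averaged over treatments, beside 4.24% and 3.14%. Usp33, a deubiquitinase, rose by 0.42 ± 0.09 at ZT15 in exercised mice (limma adjusted p = 0.00702) and by 0.30 ± 0.06 averaged over treatments (adjusted p = 0.00337). Arrb1, the beta-arrestin 1 gene, fell by 0.19 averaged over treatments (adjusted p = 0.0172). None of 14 G protein and cyclase genes passed in any comparison, beside 0% to 7.37% of all genes by comparison. Gnai1 and Gnb1, those of highest mean signal, had -0.42 and 0.10 averaged over treatments in time, with limma adjusted p-values of 0.166 and 0.240. None of 10 genes of lipolytic enzymes and droplet proteins passed either, beside the same shares of all genes. Plin4 and Cidec, the most abundant, had 0.33 and 0.21, with adjusted p-values of 0.158 and 0.495. The listed genes Adra2b, Adra2c and Adcy8 are not analysed here.

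Several of the pathway calls within 1 treatment depended on single libraries. The Ffar2 call in sedentary mice had limma adjusted p-values of 0.0501 to 0.102 when ZT15_RUN_1, ZT15_SED_1, ZT15_SED_2, ZT15_SED_3, ZT15_SED_5, ZT3_SED_2, ZT3_SED_3, ZT3_SED_4 or ZT3_SED_6 was left out. The Npy1r call had 0.0573 to 0.0963 in exercised mice without ZT15_RUN_1, ZT15_RUN_2, ZT15_RUN_3, ZT15_RUN_4, ZT3_RUN_1, ZT3_RUN_4, ZT3_RUN_5 or ZT3_RUN_6, and 0.0516 and 0.0524 in sedentary mice without ZT15_SED_3 or ZT3_SED_2. For Pde3b in exercised mice it was 0.0605 to 0.0855 without ZT15_RUN_4, ZT15_RUN_5, ZT15_RUN_6, ZT3_RUN_1 or ZT3_RUN_4, and for Pde3a 0.0505 without ZT15_RUN_1. Fitted on the compared groups alone, the calls in exercised mice had adjusted p-values of 0.0510 for Adra1a, 0.132 for Npy1r, 0.101 for Pde3a, 0.127 for Pde3b and 0.0642 for Usp33 by limma. The averaged calls of Adra1a, Npy1r, Ffar2, Tshr, Pde3a, Usp33 and Arrb1 held whichever library was left out.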

How the data were processed

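Total RNA from inguinal fat was depleted of ribosomal RNA and sequenced with a strand-marking Illumina kit, per the labels' protocols. The submitters' processing notes name STAR, featureCounts, Subread 1.6.2 and limma 3.48.3. The sources used here do not give the genome build, annotation, strand setting or filter on low genes. The deposited table holds a normalized signal per gene that the authors made from read counts. The values equal CPM scaled by TMM factors, as 100% of them came out as whole reads within 0.01. Library depth was 18.5 to 34.7 M reads.

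Groups came from the labels, with 6 libraries each. The design text gives 6 per group, but no label ties a library to an animal, so p-values measure only the spread between these samples. Values were taken as log2(value + 1) and fitted in limma 3.58.1 (R 4.3.3) with 4 group means and an intensity trend, over 16233 genes and 7 contrasts, with Benjamini-Hochberg adjustment and a threshold of 0.05. The fit was tested on simulated data. Recovered reads were fitted with edgeR 4.0.16 and DESeq2 1.42.0 as alternatives. Other alternatives changed the scaling, pseudocount, filter, covariates, variance model and libraries. Correlations used values with group means removed and 100000 permutations within groups. Lengths are merged exons of GENCODE M21, and promoters are RefSeq's on GRCm38.p6.

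The 7 receptors are named whatever their values. From each pathway list, members past the threshold are named, up to 4 per list and contrast by smallest p, and otherwise the 2 of highest mean. For each receptor the 3 genes of highest r with it were taken, of which 1 is not reported here. The members and lists were chosen with earlier results of these data known.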

Additional observations from a re-analysis of the deposited data

Results flagged for a closer look

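Adrb1 in the library ZT3_RUN_1 stood far from the others of its group, at a normalized signal of 5.92 with the next highest value at 2.97. The gap was 0.704 of the range of the 6 libraries, above Dixon's 95% limit for 6. This was 1 of 28 receptor and group combinations tested, and chance marks about 1 in 20. Without this library the averaged change of Adrb1 in time was 0.56 (limma adjusted p = 0.0357), against 0.47 (adjusted p = 0.109) with it. The cause was not tested.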

How the results depend on the processing

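Of 1862 receptor changes compared with those reported, 1744 kept their direction and side of the threshold, 97 turned sign, 21 newly passed and 0 were lost. Of the 21, 3 had unchanged values and passed only because the threshold was loosened to an adjusted p under 0.1. Receptors past the threshold averaged over treatments in time were 0 of 7 as reported, beside 1197 of all genes. They numbered 2 with the adipocyte score (1863 of all genes) and 2 with lymphocyte and muscle scores (3105 of all genes). They numbered 2 by DESeq2 (1636), 2 by quantile normalization (1061) and 1 without the Cd79a-high libraries (1755). They numbered 3 at an adjusted p under 0.1 (1854), and 0 to 2 leaving out a library (939 to 1605). With the adipocyte score they numbered 2 in sedentary mice (615 of all genes) and 1 in exercised mice (612 of all genes). DESeq2 gave 1 for exercise at ZT15 (541 of all genes). Genes called leaving out a library numbered 16 to 293 for exercise at ZT15 (104 reported), 0 to 165 averaged over times (23), 330 to 1004 in exercised mice (680), 130 to 388 in sedentary mice (191) and 939 to 1605 averaged over treatments (1197). The other alternatives gave 19 to 541, 0 to 193, 109 to 1575, 142 to 615 and 1046 to 3105 in that order, and up to 239 for the interaction (0). No setting moved the median of all genes by over 0.1.

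Title numbers are unique, and nothing says that they pair samples. As a replicate block they changed no receptor call (Adra2a for exercise at ZT15: limma adjusted p = 0.120 with runs of 8 and 0.187 with neighbouring numbers). Neighbouring numbers could not be fitted for time, and Adra2a has no value without the lowest 25% of genes. Median centring took Arrb1 to an adjusted p of 0.0523, Ffar2 in sedentary mice to 0.0742 and Pde3a in exercised mice to 0.0547, and the adipocyte score took Npy1r there to 0.0893. The receptor pairs past the threshold, 4 as reported, numbered 3 to 5, and the score relations, 8 as reported, 6 to 12 under alternatives chosen after seeing the data.

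The largest of the changes that turned sign was 0.36 as reported, and the cause was not tested. Adora1, exercise at ZT15, gave -0.036 with the adipocyte score and -0.0064 by quantile normalization. Adora1, exercise at ZT3, gave -0.012 by DESeq2, -0.015 by edgeR, -0.0045 by median centring and -0.0032 by quantile normalization. Adora1, exercise averaged over times, gave -0.0048 by quantile normalization. Adora1, the interaction, gave -0.12 with the adipocyte score, -0.037 with lymphocyte and muscle scores and -0.0032 by quantile normalization. Adra2a, time averaged over treatments, gave -0.0027 by DESeq2, -0.0041 by edgeR, -0.012 with a pseudocount of 0.1 and -0.0064 without the Cd79a-high libraries. Adra2a, exercise at ZT3, gave -0.0020 with the adipocyte score, -0.053 with lymphocyte and muscle scores and -0.061 without the Cd79a-high libraries. Adrb1, exercise averaged over times, gave 0.0025 by quantile normalization. Adrb3, the interaction, gave -0.085 with lymphocyte and muscle scores and -0.040 without the Cd79a-high libraries. Hcar1, the interaction, gave -0.049 with lymphocyte and muscle scores. Npr3, time in exercised mice, gave -0.074 with the adipocyte score. Npr3, exercise at ZT15, gave -0.17 with the adipocyte score, -0.018 by DESeq2, -0.024 by edgeR, -0.063 with lymphocyte and muscle scores and -0.10 by quantile normalization. Npr3, exercise at ZT3, gave 0.12 with the adipocyte score, 0.024 by DESeq2, 0.019 by edgeR, 0.061 with lymphocyte and muscle scores, 0.015 by quantile normalization and 0.11 without the Cd79a-high libraries. Npr3, exercise averaged over times, gave -0.027 with the adipocyte score, -0.0023 by edgeR, -0.00094 with lymphocyte and muscle scores and -0.045 by quantile normalization. Npr3, the interaction, gave -0.29 with the adipocyte score, -0.042 by DESeq2, -0.043 by edgeR, -0.12 with lymphocyte and muscle scores, -0.12 by quantile normalization and -0.0031 without the Cd79a-high libraries. Leaving out a library gave these ranges. Adora1, exercise at ZT15, -0.025 to 0.13. Adora1, exercise at ZT3, -0.11 to 0.14. Adora1, exercise averaged over times, -0.017 to 0.11. Adora1, the interaction, -0.059 to 0.19. Adra2a, time averaged over treatments, -0.0090 to 0.080. Adra2a, exercise at ZT3, -0.06 to 0.10. Adrb1, exercise averaged over times, -0.13 to 0.0093. Adrb3, exercise at ZT15, -0.21 to 0.0024. Npr3, exercise at ZT15, -0.11 to 0.26. Npr3, exercise at ZT3, -0.26 to 0.16. Npr3, exercise averaged over times, -0.10 to 0.12. Npr3, the interaction, -0.10 to 0.32.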
